A study of Caenorhabditis elegans with 2 samples.

Results

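The genes described here are 6 hsp-16 genes of chromosome V in Caenorhabditis elegans: hsp-16.1, hsp-16.11, hsp-16.2, hsp-16.41, hsp-16.48 and hsp-16.49, out of 19973 protein-coding genes on the nuclear chromosomes. RefSeq also gives the names hsp-16.20 and hsp-16.21 to F08H9.3 and F08H9.4 of this chromosome, which are set here among the other small heat shock genes. Below, the hsp-16 genes and the family are the 6 genes named first. They were chosen by name, with earlier results of these peak lists known, and every summit within 1000 bp of one of them is reported. The data are peak lists from chromatin immunoprecipitation followed by sequencing (ChIP-seq) against AMA-1, the large catalytic subunit of the RNA polymerase II complex. The material was whole N2 larvae, the wild-type reference strain, of the L3 stage and of both sexes, with no treatment named. There were 2 biological replicates of 1 group and no second condition, so every value below is a description without a test.

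Small heat shock proteins carry an alpha-crystallin domain and hold unfolding proteins in a soluble state without using ATP. The hsp-16 genes are the classical heat-inducible members in this worm. They lie as divergent pairs that share 1 promoter region, are nearly silent in unstressed animals, and are switched on by the heat shock factor HSF-1, which binds arrays of GAA units in alternating orientation. Reporters of hsp-16.2 are widely used to follow the stress response in living worms.

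The genes form 2 clusters. The first is the pair hsp-16.2 (WBGene00002016, chrV:1804334-1804957, minus strand) and hsp-16.41 (WBGene00002018, chrV:1805178-1805875, plus strand). The second holds hsp-16.1 (WBGene00002015, chrV:9087293-9087782, minus), hsp-16.48 (WBGene00002019, chrV:9088131-9088617, plus), hsp-16.49 (WBGene00002020, chrV:9089280-9089766, minus) and hsp-16.11 (WBGene00002017, chrV:9090077-9090604, plus). Coordinates are those of WBcel235, which is the ce11 assembly of the peak lists. Each gene has 2 exons. In the Ensembl annotation hsp-16.1, hsp-16.48 and hsp-16.49 have no untranslated regions, so their annotated 5′ end is the start codon and their 3′ end the stop codon. The 3′ end of hsp-16.11 is the stop codon as well. Distances past a 3′ end in the second cluster are therefore counted from the stop codon, unlike those of genes with an annotated 3′ untranslated region. The same annotation gives hsp-16.11 the name hsp-16.1 and hsp-16.49 the name hsp-16.48, and the RefSeq names are used here.

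The coding sequences fall into 2 types, one on each side of a divergent pair. The genes hsp-16.1 and hsp-16.11 encode identical proteins of 145 residues, and the protein of hsp-16.2, also of 145 residues, shares 93.1% of its residues with them. The genes hsp-16.48 and hsp-16.49 encode identical proteins of 143 residues, 93.7% identical to that of hsp-16.41. Between the types the identity was lower, 44.1% for hsp-16.2 against its neighbour hsp-16.41 and 46.1% for hsp-16.1 against hsp-16.48.

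The second cluster is a perfect inverted repeat. A stretch of 1881 bases on the left (chrV:9086861-9088741), which holds hsp-16.1, hsp-16.48 and nearly all of the small nuclear RNA gene T27E4.11, is repeated base for base in reverse orientation on the right (chrV:9089156-9091036), with hsp-16.49, hsp-16.11 and T27E4.10. The copies are separated by 414 bases. Further small nuclear and noncoding RNA genes, T27E4.12, T27E4.15 and T27E4.22, lie 847 to 850 bp beyond hsp-16.11, and no other annotated gene lies within 1000 bp of either cluster. Within each of these 4 hsp-16 genes, 0% of the windows of 50 bases occur once in the genome, and all of them occur 2 times. In hsp-16.2 and hsp-16.41 the share of windows that occur once is 100%. The list of deposited files for each library names signal tracks made from unique reads, but whether reads with several places in the genome entered the peak calling was not stated there or in the labels.

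The shared promoter regions are shown because they carry sequence elements that the 6 genes have in common and because no summit fell in them. Peak regions do reach into the first of them, as given below. Both printed sequences are on the plus strand, with the left gene before and the right gene after. The first ends inside hsp-16.41, and the second is a part of its spacer, chrV:9087783-9088130, and does not reach either gene. Capitals mark matches of a motif of 3 alternating units, which is TTC, GAA and TTC, or GAA, TTC and GAA, with 2 bases of any kind between neighbouring units, searched on both strands. They also mark the letters TATAAA on either strand (TTTATA on the strand shown). No 2 of these capital runs overlap.

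hsp-16.2 to hsp-16.41, chrV:1804958-1805181: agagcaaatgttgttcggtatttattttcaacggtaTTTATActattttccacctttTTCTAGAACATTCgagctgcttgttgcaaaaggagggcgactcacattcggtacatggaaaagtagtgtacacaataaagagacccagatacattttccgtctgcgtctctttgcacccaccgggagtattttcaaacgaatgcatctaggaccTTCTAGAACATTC

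hsp-16.1 to hsp-16.48, chrV:9087821-9088120: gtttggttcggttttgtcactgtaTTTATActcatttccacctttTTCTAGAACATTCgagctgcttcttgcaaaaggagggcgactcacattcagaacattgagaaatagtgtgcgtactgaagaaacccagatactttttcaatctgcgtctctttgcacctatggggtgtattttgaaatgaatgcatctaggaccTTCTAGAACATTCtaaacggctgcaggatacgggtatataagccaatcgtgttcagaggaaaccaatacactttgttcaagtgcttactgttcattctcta

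The third region, between hsp-16.49 and hsp-16.11, is not printed, since its 300 matching bases (chrV:9089777-9090076) are the reverse complement of the second sequence in 300 of 300 positions. Each region holds the motif 2 times, and every match has the same 13 letters, TTCTAGAACATTC or its reverse complement GAATGTTCTAGAA. In each region the starts of both matches lie 154 bases apart. The block of 167 bases from the first match to the end of the second is identical in 146 positions, or 87.4%, between the clusters. Beside hsp-16.2 the first match lies 57 bases from its 5′ end, and the second crosses the 5′ end of hsp-16.41. The TATAAA letters stood on the side of hsp-16.2 (36 bases from its 5′ end), hsp-16.1 (62 bases from the start codon) and hsp-16.11 (24 bases from its 5′ end).

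Windows from 250 bases before to 50 bases after the annotated start were compared over all protein-coding genes. The motif of 3 units was in the window of 6 of 6 hsp-16 genes and of 393 of 19973 protein-coding genes (1.97%). TATAAA on the gene's strand was in 3 of 6 and in 24.1% of all windows. The exact 13 bases were in the windows of 7 of 19973 genes, which were the 6 hsp-16 genes and the chemoreceptor gene str-211, also on chromosome V. They occur 254 times in the 6 nuclear chromosomes. A match of letters is not a measurement of binding, and divergent neighbours share part of their windows.

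At hsp-16.2 and hsp-16.41, polymerase was found at 4 places in the optimal list. One lay in the first exon of each gene and one past the 3′ end of each gene. The optimal list holds the authors' peaks that passed a cutoff on the irreproducible discovery rate (IDR), which scores how well peak ranks agree. Passing it is not read here as agreement of both replicates, since 2806 of the 3052 optimal peaks had a region within 200 bp in both. The signal is the authors' own value per peak, in units that no label or file states, and it is compared only within a list. Rank 1 is the strongest region of a list. The list on pooled reads and those of both replicates hold 30000 permissive regions each, with a median signal of 24.6, 17.3 and 9.10 in that order, and the optimal list holds 3052 peaks with a median of 79.2.

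In hsp-16.2 the summit stood in the coding part of exon 1, at 1804854, 103 bp inside the 5′ end. Its signal was 212 on the pooled reads (rank 139), 207 in replicate 1 (rank 70, summit at the same base) and 24.5 in replicate 2 (rank 2132, summit 55 bp away). In hsp-16.41 the summit stood in the coding part of exon 1, at 1805296, 118 bp inside the 5′ end. Its signal was 208 on the pooled reads (rank 147), 184 in replicate 1 (rank 94) and 43.9 in replicate 2 (rank 531), where the summit lay 140 bp away in the intron. These were the positions at which both replicates ranked the pair highest, and each of them ranked higher in replicate 1 than in replicate 2.

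Past the 3′ end of hsp-16.2 the summit stood at 1804239, 95 bp beyond the annotated end. Its signal was 176 on the pooled reads (rank 234), 164 in replicate 1 (rank 129) and 6.73 in replicate 2 (rank 22451). Past hsp-16.41 the summit stood at 1806117, 242 bp beyond the annotated end, with 173 on the pooled reads (rank 247), 177 in replicate 1 (rank 105) and 11.4 in replicate 2 (rank 10485). On the pooled reads and in replicate 1 the regions past the genes therefore stood near those in the first exons. In replicate 2 they lay far down the list, where a signal of 6.73 is below the list's median of 9.10.

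2 weaker regions completed the cluster, and neither was in the optimal list. The pooled list had one at 1805512 in exon 2 of hsp-16.41 (signal 52.0, rank 3862), which lies 76 bp from the replicate 2 summit in the intron, so that this summit of replicate 2 stands near both pooled summits. Replicate 1 had one at 1805728 in the same exon (signal 23.6, rank 9329) with no summit of another list within 200 bp. In the spacer of 220 bp between the genes, where the motif matches lie, 0 summits fell in each of the 4 lists. The optimal regions of both first exons, chrV:1804694-1805013 and chrV:1805136-1805455, nevertheless reach into this spacer. The first covers the TATAAA letters and the second covers the motif match at the 5′ end of hsp-16.41.

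**Figure D1:**
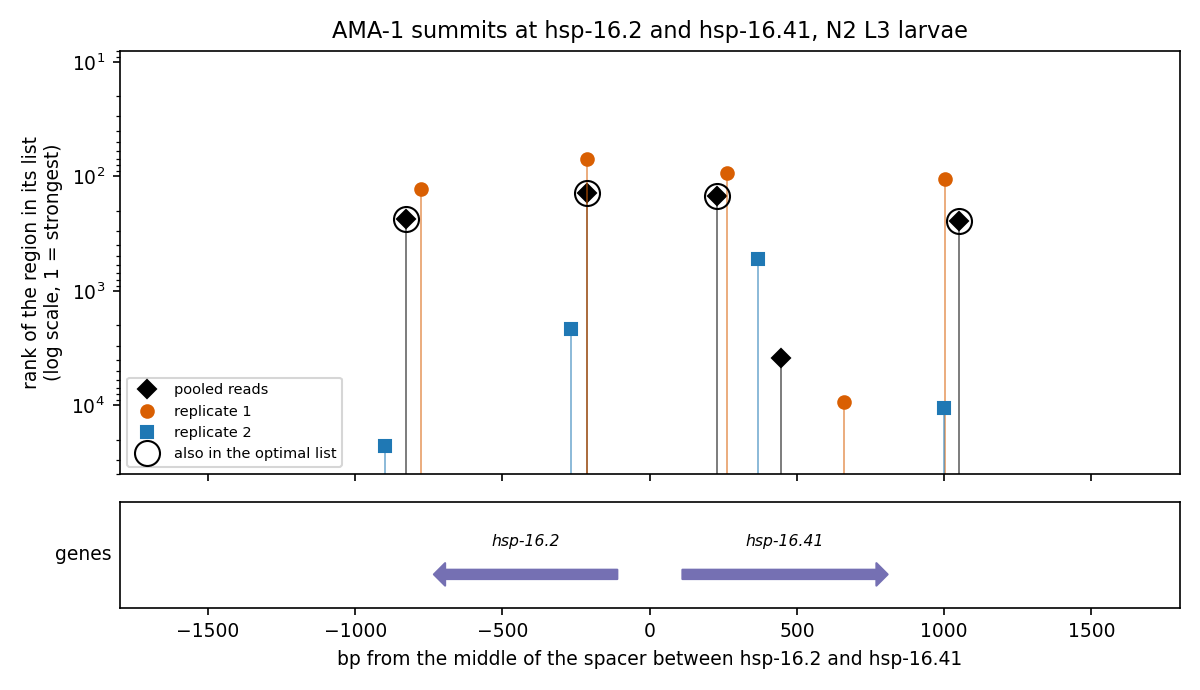
Rank of each region (log scale, 1 at the top end) against the distance of its summit in bp from the middle of the spacer between hsp-16.2 and hsp-16.41, for pooled reads, replicate 1 and replicate 2, with the genes as arrows below. The 4 circled summits of the optimal list stand in the first exons and past the 3′ ends at ranks 139 to 247, and those of replicate 2 lie lower, at ranks 531 to 22451.

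In the cluster of hsp-16.1, hsp-16.48, hsp-16.49 and hsp-16.11 lay the region that was strongest of the 6 genes on pooled reads and in replicate 1. It stood between genes that point towards each other. Its pooled summit, at 9089068 in the spacer of 662 bp between hsp-16.48 and hsp-16.49, stood 451 bp past the 3′ end of hsp-16.48 and 212 bp past that of hsp-16.49. The signal was 417 on the pooled reads (rank 23), 403 in replicate 1 (rank 14, summit 18 bp away) and 21.0 in replicate 2 (rank 3047, summit 7 bp away). The position was thus nearly the same in both replicates, while the rank was not. The region, chrV:9088834-9089209, was the only one of the optimal list within 1000 bp of these 4 genes.

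The 101 bases around that summit are shown because on pooled reads and in replicate 1 the strongest region of the 6 genes lies here and not at a promoter. They also lie in the 414 bases that are not part of the repeat. In replicate 2 the regions in hsp-16.41 (rank 531) and hsp-16.2 (rank 2132) ranked above this one (rank 3047). The capital marks the base of the summit, on the plus strand.

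hsp-16.48 to hsp-16.49, chrV:9089018-9089118: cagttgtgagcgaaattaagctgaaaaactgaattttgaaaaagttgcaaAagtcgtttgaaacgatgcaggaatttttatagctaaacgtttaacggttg

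The other summits of this cluster stood at its outer edges. At 9086830, 463 bp past the 3′ end of hsp-16.1, the signal was 45.9 on the pooled reads (rank 4961), 40.4 in replicate 1 (rank 3424) and 6.72 in replicate 2 (rank 22482). At 9091071, 467 bp past the 3′ end of hsp-16.11, it was 28.1 on the pooled reads (rank 12257) and 23.4 in replicate 1 (rank 9426), and replicate 2 had no summit within 200 bp. Both lie just past the ends of the small nuclear RNA genes T27E4.11 and T27E4.10, which mirror each other, so the summits cannot be given to the hsp-16 genes rather than to these neighbours. Neither was in the optimal list.

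No summit of any list fell inside the copies. Of the 3 summits on pooled reads, the 3 of replicate 1 and the 2 of replicate 2, 0 lay in the 3762 bases of both copies, and the pooled summits stood 88, 31 and 35 bp outside a copy for 9089068, 9086830 and 9091071. Of the windows of 50 bases in the region around 9089068, 98.5% occur once in the genome, against 70.5% around 9086830 and 67.9% around 9091071. The 4 genes and both of their promoter regions lie inside the copies, so a promoter without a summit there was not shown to be without polymerase. The part of the repeat in this pattern was not tested.

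**Figure D2:**
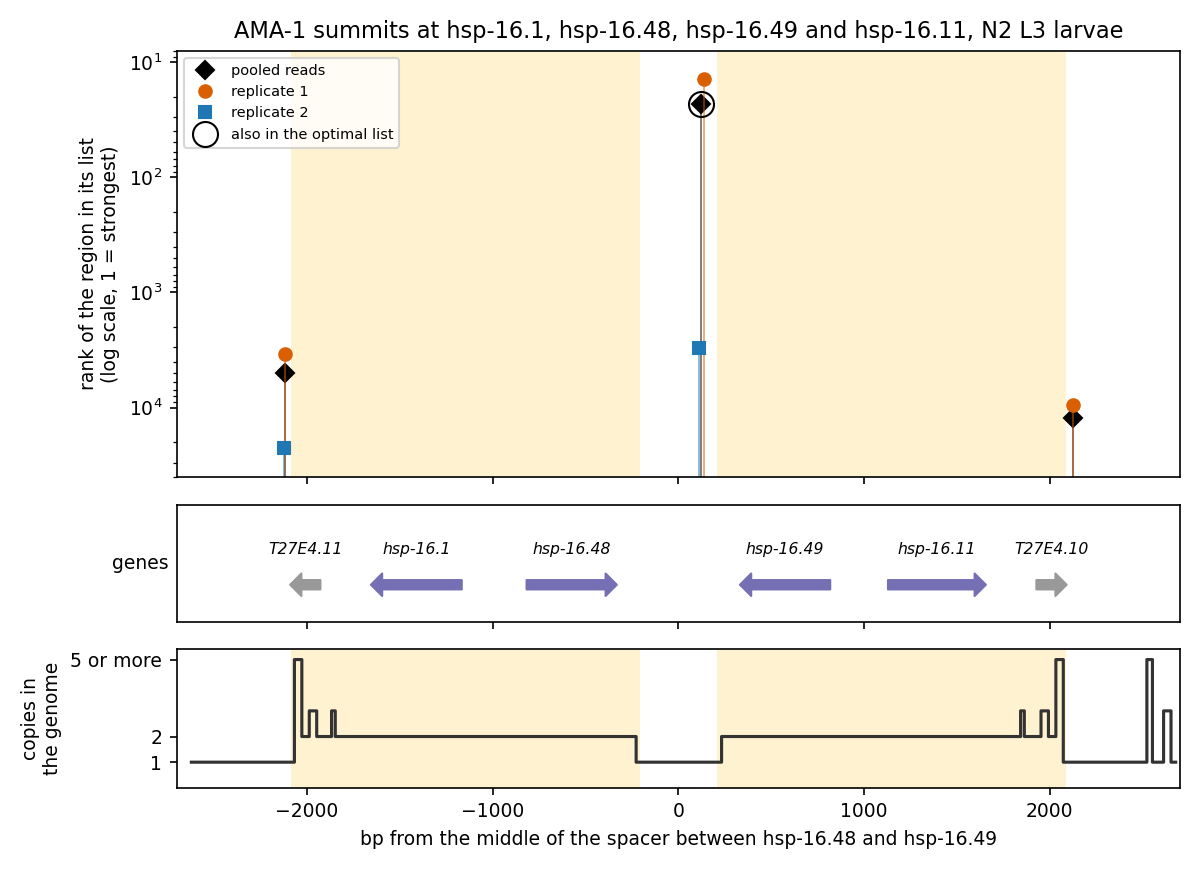
Top, rank of each region (log scale) against the distance of its summit in bp from the middle of the spacer between hsp-16.48 and hsp-16.49, with genes as arrows below. Bottom, how often the window of 50 bases at each position occurs in the genome; the shaded copies of 1881 bases hold no summit, and the strongest region, at rank 23 on pooled reads, stands between them.

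Counted over genes, an optimal summit lay within 1000 bp of 4 of the 6 hsp-16 genes (hsp-16.2, hsp-16.41, hsp-16.48 and hsp-16.49), where 12.5% of all protein-coding genes had one. The genes were proposed from these peaks, so this count is read no further. On pooled reads all 6 had a summit within 1000 bp (50% of all genes), in replicate 1 all 6 (48.1%) and in replicate 2 5 of 6 (54.6%), with hsp-16.11 as the gene without one. Just inside the limit was the replicate 1 summit 991 bp from hsp-16.11, and just outside it the pooled summit of the same region at 1009 bp. Within 500 bp of the 5′ end 2 of 6 genes had an optimal summit (6.07% of all genes), and within 500 bp past the 3′ end 4 of 6 (4.5%). Both held for hsp-16.2 and hsp-16.41, as for 1.72% of all genes. At least 4 optimal summits lay near 1 of 6 genes, hsp-16.41, and near 0.841% of all genes. The same regions enter for several genes, because neighbours share them.

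The position of the regions past 3′ ends recurred in both clusters. On pooled reads the strongest region within 1000 bp lay within 500 bp past the 3′ end for 4 of 6 hsp-16 genes, which were all of the second cluster, and for 20.9% of the 9982 protein-coding genes with a pooled summit within 1000 bp. These 4 genes and their promoters lie inside the repeat copies, which hold no summit of any list, so the count cannot be read against that share. For hsp-16.1 and hsp-16.11 the region also cannot be given to the gene rather than to the small nuclear RNA gene beside it. Among genes with an optimal summit within 1000 bp, this held for 2 of 4 hsp-16 genes, which share that summit, and for 26.3% of 2502 protein-coding genes. Among spacers of up to 1000 bp between convergent protein-coding genes, 43 of 1758 held an optimal summit (2.45%). The spacer of hsp-16.48 and hsp-16.49 was in 2nd place among these by pooled rank, after that of nep-25 and ZK1248.17 (rank 3) and before that of hsp-1, the constitutive Hsp70 gene, and nra-1 (rank 26). Among divergent pairs with a spacer of up to 500 bp, 7.92% of 896 spacers held an optimal summit and 29.8% a pooled one, and none of the 3 spacers of hsp-16 pairs held either. Here too the spacers of hsp-16.1 with hsp-16.48 and of hsp-16.49 with hsp-16.11 lie inside the repeat copies, and only that of hsp-16.2 with hsp-16.41 does not. The letters AATAAA, the usual signal for cleavage of the transcript, first appeared 89 bases past the stop codon in hsp-16.2 and hsp-16.41, 67 bases past it in hsp-16.1 and hsp-16.11 and 33 bases past it in hsp-16.48 and hsp-16.49. In the 100 bases past the stop codon 33.6% of all protein-coding genes have these letters. The first pooled summit past the stop codon lay beyond them in each gene, 202 bases past the stop codon in hsp-16.2 and 357 in hsp-16.41. In the 4 genes of the second cluster the 100 bases lie inside the repeat copies, where no summit fell, so nothing is read from this order there.

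The replicates differed at every hsp-16 region of the optimal list. All 5 ranked higher in replicate 1, as did 58.1% of the 2806 optimal peaks with a region within 200 bp in both replicates. The rank in replicate 2 divided by that in replicate 1 was 218 for the spacer of hsp-16.48 and hsp-16.49, 174 past hsp-16.2, 99.9 past hsp-16.41, 30.5 in exon 1 of hsp-16.2 and 5.65 in exon 1 of hsp-16.41. The median of this ratio over the 2806 peaks was 1.35. Larger ratios than that of the spacer were found for 3 of these peaks, and larger ones than that of hsp-16.41 exon 1 for 496. Each replicate list holds 30000 regions, so a peak of high rank in replicate 1 can reach a larger ratio. Among the 250 strongest optimal peaks, 243 were matched, with a median ratio of 1.65, and 61.3% of them ranked higher in replicate 1. Of these, 3 had a larger ratio than the spacer and 56 a larger one than hsp-16.41 exon 1. When each optimal peak was paired with the strongest region within 200 bp in place of the nearest, the 5 hsp-16 ratios kept their values, and larger ratios than that of the spacer were found for 2 peaks and than that of hsp-16.41 exon 1 for 452. Among these 5 regions, the replicates thus stood furthest apart past the 3′ ends and closest in the first exons. This did not extend to the weaker region past hsp-16.1, which is not in the optimal list. It ranked 3424 in replicate 1 and 22482 in replicate 2, which is closer than in exon 1 of hsp-16.2. The files give no read depth, so the precision of a rank is unknown.

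**Figure D3:**
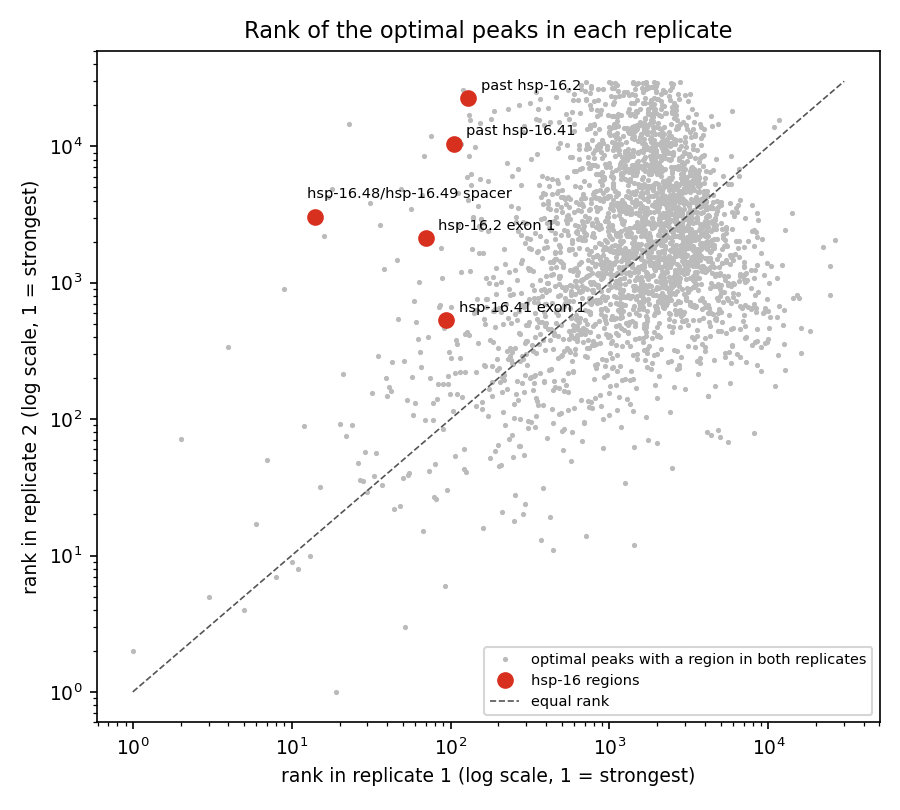
Rank in replicate 2 against rank in replicate 1 (both log scale, 1 the strongest) for the optimal peaks found in both replicates, with the hsp-16 regions in red and a dashed line at equal rank. All 5 red points lie above the line, from 94 and 531 for exon 1 of hsp-16.41 to 14 and 3047 for the spacer of hsp-16.48 and hsp-16.49.

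The peaks whose ranks in the pooled list and both replicates were most like those of the spacer region were taken from 1049 peaks at most 500 bp away from the 5′ end of a protein-coding gene, by the distance between the log10 ranks. The nearest was a peak by ufbp-1 on chromosome III (ranks 22, 16 and 2215, distance 0.15), which also lay 104 bp past the 3′ end of hsp-110, the gene of a large Hsp70-type chaperone. It was followed by a peak by ego-1 on chromosome I (14, 9 and 893, distance 0.61), 231 bp from the 3′ end of the gene F26A3.4, and by R11A5.6 on chromosome I (62, 38 and 1261, distance 0.72). A peak by C47E8.11 on chromosome V (38, 23 and 14468, distance 0.74) lay 141 bp past the 3′ end of hsp-90, the cytosolic Hsp90 gene. Its replicate 2 rank is that of the nearest region, and a stronger one within 200 bp ranked 122. With that region the distance was 1.43 and the peak stood in place 16. One by R107.5 on chromosome III had ranks of 94, 49 and 4904 (distance 0.84). In pooled rank the spacer region stood between the peak past hsp-110 at rank 22 and one on the X chromosome near the noncoding gene W05H9.3 at rank 24. That neighbour, with a pooled signal of 417 like the spacer, ranked 22 in replicate 1 and 75 in replicate 2. Peaks further than 500 bp from a 5′ end were not candidates, although the spacer summit itself lies 937 and 698 bp from those of hsp-16.48 and hsp-16.49. The peaks by mdl-1 (ranks 32, 17 and 4265) and in nurf-1 (36, 18 and 4843) were left out in this way.

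Other small heat shock genes of the alpha-crystallin type were set beside the family as a list of 12. An optimal summit lay within 500 bp of the 5′ end of 1 of these, F08H9.3 (RefSeq name hsp-16.20), and within 1000 bp of the gene for 3, the others being its neighbour F08H9.4 (hsp-16.21), which shares that summit, and hsp-12.3. At F08H9.3 the strongest region ranked 2943 on the pooled reads, 24476 in replicate 1 and 819 in replicate 2. At hsp-12.3, 15 bp past its 3′ end, it ranked 54 on the pooled reads, 371 in replicate 1 and 13 in replicate 2. At both the order of the replicates was the reverse of that at the hsp-16 genes. No summit of the optimal list lay within 1000 bp of hsp-12.1, hsp-12.2 or hsp-12.6. Of the 11 genes with a region in both replicates, 5 ranked higher in replicate 1, and the median best rank was 6168 in replicate 1 and 9654 in replicate 2. The motif of 3 units was in the window of 0 of 12 of these genes.

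The wider heat shock response was read from a list of 23 factors and chaperones, of which 22 were found in the annotation. Of these, 13 had an optimal summit within 500 bp of the 5′ end (59.1%) and 18 one within 1000 bp of the gene (81.8%), against 6.07% and 12.5% of all protein-coding genes. The list was written with earlier results of these data known. The strongest region ranked higher in replicate 1 for 16 of the 22 genes, with a median of 377.5 in replicate 1 and 623 in replicate 2. Over the 8728 protein-coding genes with a region in both replicates, 41.8% ranked higher in replicate 1, with medians of 7423.5 and 5944. With an optimal summit within 1000 bp as well, this held for 14 of 18 genes of the list and for 48.9% of 2491 protein-coding genes, whose medians were 1483 and 1292.

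At several of these chaperone genes the strongest region lay past the 3′ end and ranked higher in replicate 1. For 11 of the 22 the strongest pooled region lay within 500 bp past the 3′ end, as for 3 of the 12 other small heat shock genes and 20.9% of the 9982 protein-coding genes with a pooled summit. At F44E5.4, a heat-inducible Hsp70 gene, it lay 205 bp past the 3′ end and ranked 11 on the pooled reads, 4 in replicate 1 and 339 in replicate 2, although no optimal summit lay within 500 bp of its 5′ end. The best rank near a gene may belong to different summits in different lists. At its neighbour F44E5.5, of the same kind, the best ranks were 229 on the pooled reads and 76 in replicate 1, both past the 3′ end, and 9165 in replicate 2, on the 5′ side. At dnj-13, a DnaJ co-chaperone gene, the region 116 bp past the 3′ end ranked 15 on the pooled reads, 12 in replicate 1 and 89 in replicate 2. At hsp-1 the region 72 bp past the 3′ end ranked 26, 24 and 90 in the same order, and at unc-23, which encodes a BAG-domain co-chaperone, that 79 bp past it ranked 64, 47 and 538. The best ranks in replicates 1 and 2 were 192 and 767 for hsp-70, 184 and 1110 for sti-1, 870 and 2849 for dnj-19, and 563 and 592 for hsp-3.

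The opposite order was also present in the list. The best ranks in replicates 1 and 2 were 78 and 47 at the polyubiquitin gene ubq-1, 4191 and 601 at ubq-2 and 2198 and 585 at bag-1. At dnj-12, which is not of the opposite order, they were close to equal at 579 and 589. The gene of the regulator itself, hsf-1 on chromosome I, had no optimal summit within 1000 bp, and its best ranks were 5555 in replicate 1 and 15434 in replicate 2. The genes hsb-1, which encodes a binding partner of HSF-1, and ddl-1 had none either. The motif of 3 units was in the window of 8 of the 22 genes, which were hsp-70, F44E5.4, F44E5.5, hsp-1, hsp-90, hsp-110, dnj-12 and bag-1.

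**Figure D4:**
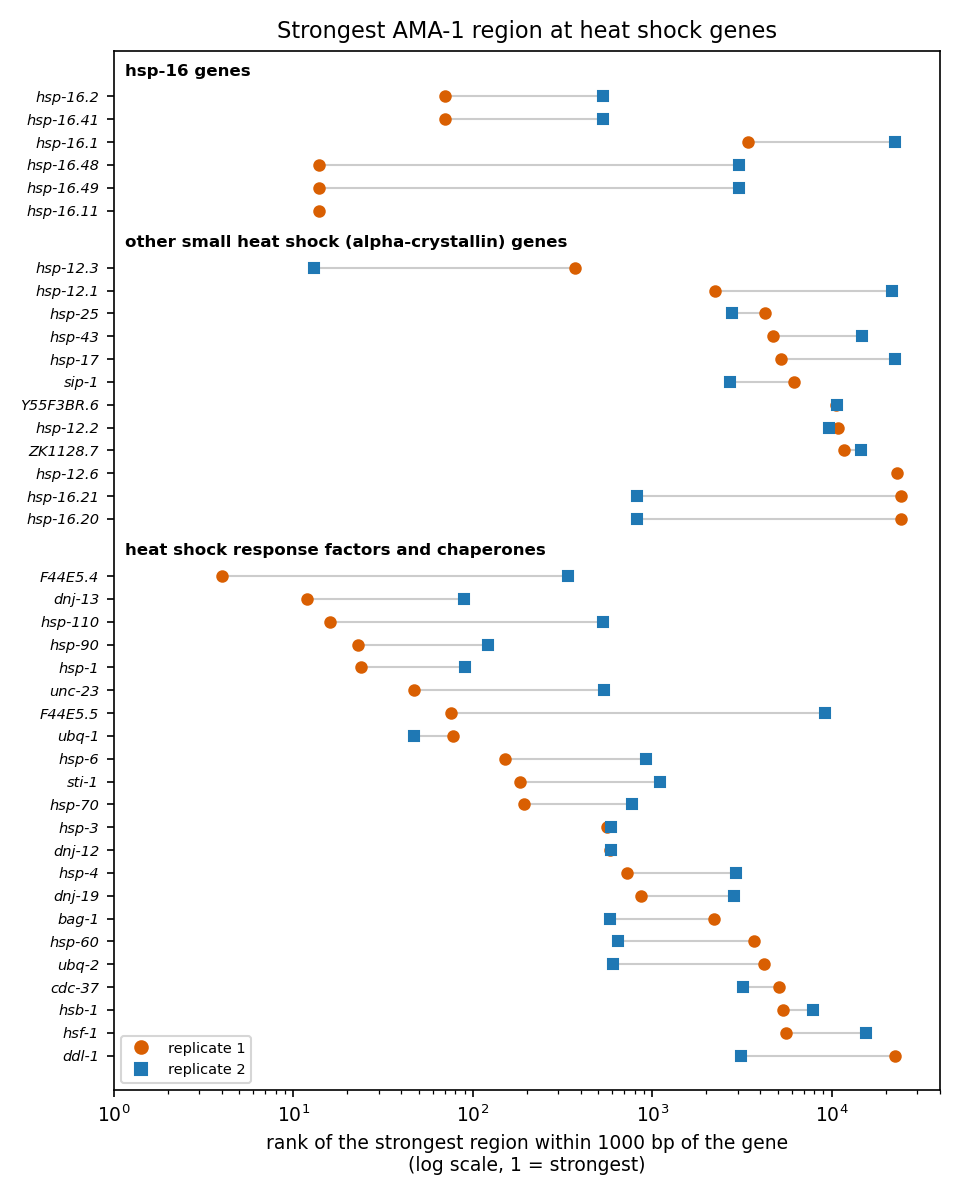
Rank of the strongest region within 1000 bp of each gene (log scale, 1 the strongest) in replicate 1 and replicate 2, for the hsp-16 genes and both lists; a gene without a blue square has no region in replicate 2. At hsp-16.48 and hsp-16.49 the ranks were 14 and 3047, at F44E5.5 they were 76 and 9165, and at hsp-12.3 the order was reversed, with 371 and 13.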

How the data were processed

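Each of the 2 biological replicates is 1 library of size-selected DNA (150 to 350 bp, per the labels). Peaks were deposited as narrowPeak lists in builds ce10 and ce11, per the list of files that accompanies each library. The 4 ce11 lists were used: permissive regions per replicate and on pooled reads, and the optimal list thresholded by IDR. The ce10 lists and the control experiment named in the labels were not analysed here. The signal value deposited in column 7 is a score of the authors. Column 9, in the format used by the authors, is a −log10 q value and served only as another ranking. No source used here names an aligner, a caller, an IDR cutoff, a read length or a depth.

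A summit is column 2 plus column 10, written 1-based. Regions were ranked by column 7 within a list, and regions of different lists were matched to the nearest summit within 200 bp, with the strongest summit within 200 bp as an alternative added after the data were seen. With 1 group there was no comparison to test. Genes came from the Ensembl annotation of WBcel235, and names and genome sequence from RefSeq, joined by WormBase gene ID. Promoter windows were cut from the genome. Protein identity came from global alignments of translated coding sequences (Biopython 1.88). Python 3.11.15, pandas 2.3.3 and numpy 2.4.6 were used, and the counting was tested on simulated data. Alternatives changed the distances, the list, the ranked value, the replicate, the motif and the window length.

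The hsp-16 genes and both gene lists were chosen with earlier results of these data known. Named are the hsp-16 genes, annotated genes within 1000 bp of them, the 5 genes nearest in rank, the peaks next in rank, and in both lists genes with an optimal summit within 500 bp of the 5′ end and up to 4 without. The genes F44E5.5, F08H9.4, str-211, those of the convergent spacers and those with the largest rank ratios were named after their values were seen. The searches for the exact 13 bases, AATAAA and the inverted repeat, the spacer counts and the rank ratios were added after the data were seen.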

Additional observations from a re-analysis of the deposited data

How the results depend on the processing

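Of the hsp-16 genes, 4 had an optimal summit within 1000 bp and the number was 3 to 5 under the alternatives, except that 2 had one inside the gene. For pooled summits the 6 genes became 3 within 250 bp and 2 inside the gene. Within 1000 bp of the 5′ end, in place of 500 bp, 4 genes and not 2 had an optimal summit. With a replicate left out, the first count ran from 4 to 5, the second from 5 to 6 and the third stayed at 2. By q value both strongest regions tied with the same −log10 value of 3.73. The mean rank of that tie was 1334, so column 9 did not order the tied regions. With a replicate left out, the rank of the strongest region ran from 14 to 3047 at the second cluster and from 70 to 531 at the first. The distance of the strongest summit from the 5′ end then ran from -479 to 103 bp for hsp-16.2, -324 to 258 for hsp-16.41, 952 to 956 for hsp-16.1, 930 to 955 for hsp-16.48 and 680 to 705 for hsp-16.49. For hsp-16.11 it was 994 on pooled reads and -991 without replicate 2. Without replicate 1 the strongest summit of the first cluster was that of hsp-16.41 and not of hsp-16.2, which turned the sign for both genes. The motif of 2 units was in 32.5% of all promoter windows, and that of 3 units in 1.63% when only the bases before the start were read. With windows of 36 bases, 98.6% of hsp-16.2 and 99.1% of hsp-16.41 occurred once. No paired analysis was possible because there was only 1 group. With 2 replicates and unknown depth, no error can be put on a rank.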

Other observations

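Optimal peaks with a region in both replicates were listed by rank in replicate 2 over rank in replicate 1. Peaks without a region in replicate 2 have no ratio and are not in the list, which was made after the data were seen. The largest ratio, 629, belonged to the peak inside C47E8.11 that also lies past the 3′ end of hsp-90 (ranks 23 and 14468). It rests on the pairing with the nearest region of replicate 2: with the strongest region within 200 bp, of rank 122, the ratio was 5.30. Next came a peak in nurf-1 (18 and 4843), a gene of chromatin remodelling, and one 158 bp past the 3′ end of mdl-1 (17 and 4265), which encodes a Mad-like transcription factor. The spacer of hsp-16.48 and hsp-16.49 followed. The regions past hsp-16.2, hsp-110 and hsp-16.41 were also among the 15 largest ratios. The list held 2 peaks nearest to R107.5, with ratios of 158 and 100.1, and 1 at acer-1 with 129.9 (131 and 17016), so that it was not made up of chaperone genes alone. With the strongest region, the first R107.5 ratio became 38.1, and that of F17H10.1 went from 217 to 15.4. The ratios of nurf-1, mdl-1, hsp-110, acer-1 and the hsp-16 regions were the same under both pairings.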
